A study of Mus musculus with 16 samples.

Results

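The 9 genes described here are hallmarks of the lymphoid lineages: the B cell genes Pax5, Ebf1, Cd79a, Cd79b and Ms4a1, and the T cell genes Cd3e, Cd2, Cd4 and Cd8a. They were chosen by name, and every peak that overlapped the RefSeq bounds of a gene, extended by 10 kb on either side, by at least 1 bp was counted for it. Of 368675 peaks in the 9 deposited lists, 179 lay in these 9 windows, which span 832 kb in all. Chromatin immunoprecipitation with sequencing (ChIP-seq) had been done on primary macrophages, which differentiate when bone marrow cells, here of adult C57BL/6 mice, are kept with M-CSF (5 days). In wild-type cells, EZH2 was mapped in macrophages treated with nigericin after priming with LPS and in untreated macrophages. Nigericin is a potassium ionophore that triggers the NLRP3 inflammasome, and no library of cells given LPS alone was analysed here. H3K27me3, H3K27ac and p53 were mapped in untreated wild-type macrophages. SIRT1, an NAD-dependent deacetylase, was mapped in 4 untreated groups: Ezh2 knock out cells and the wild type labelled for them, and p53 knock out cells and the wild type labelled for them. The sources used here do not say how either gene had been deleted or how many animals gave a culture. Each of the 9 groups held 1 library, so no difference between conditions has a replicate check, and every interval below covers counting error only.

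Lymphoid fate is set by transcription factors such as EBF1 and PAX5, which turn on the B cell receptor genes and hold the programme of other lineages down. In cells of another lineage, such genes can be held off by Polycomb group proteins. EZH2, the catalytic subunit of Polycomb repressive complex 2, places methyl groups on lysine 27 of histone H3, and the resulting H3K27me3 marks repressed chromatin. H3K27ac sits on the same lysine at active promoters and enhancers, so both marks cannot stand on one histone tail. No RNA was measured in these samples, so whether a gene was transcribed was not tested.

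The promoters of 4 of these genes carry the account below and are shown from RefSeq (GRCm38.p6), 250 bases before to 50 bases after an annotated start, 5′ to 3′ on the strand of the gene, with CG dinucleotides in capitals. CG-rich DNA is where Polycomb complexes are known to gather in mammalian cells. Pax5 (chr4:44710645-44710944, minus strand) and the pair of Ebf1 promoters (chr11:44617850-44618149 and chr11:44619978-44620277, plus strand) lie in the only member regions with EZH2 peaks at a gene start. Cd3e (chr9:45009562-45009861, minus strand) is the gene fully covered by H3K27me3, and Cd8a (chr6:71373177-71373476, plus strand) has neither histone mark in its window.
Pax5: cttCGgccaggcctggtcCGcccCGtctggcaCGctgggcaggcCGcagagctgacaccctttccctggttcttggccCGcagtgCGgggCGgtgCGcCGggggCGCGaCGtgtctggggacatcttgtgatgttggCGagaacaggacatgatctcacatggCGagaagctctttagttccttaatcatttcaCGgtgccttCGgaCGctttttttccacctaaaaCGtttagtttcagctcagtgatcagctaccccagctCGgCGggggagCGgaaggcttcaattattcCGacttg
Ebf1, first promoter: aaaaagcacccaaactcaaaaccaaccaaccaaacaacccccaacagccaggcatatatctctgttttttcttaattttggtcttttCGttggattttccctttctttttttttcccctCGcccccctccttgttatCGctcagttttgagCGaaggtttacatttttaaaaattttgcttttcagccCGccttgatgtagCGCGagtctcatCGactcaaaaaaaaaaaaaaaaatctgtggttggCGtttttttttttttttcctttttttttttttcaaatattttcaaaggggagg
Ebf1, second promoter: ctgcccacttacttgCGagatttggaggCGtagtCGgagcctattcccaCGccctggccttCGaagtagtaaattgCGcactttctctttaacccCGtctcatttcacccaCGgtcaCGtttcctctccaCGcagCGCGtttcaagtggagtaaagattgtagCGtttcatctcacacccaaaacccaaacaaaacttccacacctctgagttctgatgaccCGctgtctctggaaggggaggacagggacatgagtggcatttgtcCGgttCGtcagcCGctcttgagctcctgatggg
Cd3e: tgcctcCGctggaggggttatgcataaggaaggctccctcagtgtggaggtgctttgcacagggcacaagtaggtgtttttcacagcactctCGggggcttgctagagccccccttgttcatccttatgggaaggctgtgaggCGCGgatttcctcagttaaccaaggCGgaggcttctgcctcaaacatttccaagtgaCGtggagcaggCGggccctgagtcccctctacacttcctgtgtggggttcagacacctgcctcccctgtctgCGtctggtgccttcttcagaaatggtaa
Cd8a: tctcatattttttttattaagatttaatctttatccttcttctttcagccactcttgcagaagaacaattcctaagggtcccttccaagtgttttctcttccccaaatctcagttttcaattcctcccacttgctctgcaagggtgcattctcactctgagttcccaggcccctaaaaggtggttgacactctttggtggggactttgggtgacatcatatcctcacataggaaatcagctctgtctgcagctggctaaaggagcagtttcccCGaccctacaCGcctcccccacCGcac
The Pax5 sequence holds 23 CG dinucleotides, the second Ebf1 promoter 17, the first 9, Cd3e 8 and Cd8a 3. Over 32851 RefSeq promoters of this length the median was 7, and 21.5% held as many as Pax5, 31.4% as many as the second Ebf1 promoter and 76.7% as many as Cd8a. The promoters with a peak of EZH2 in untreated cells held a median of 21 and those without held 7. For EZH2 in nigericin-treated cells the medians were 16 and 7, for H3K27me3 9.5 and 7, and for H3K27ac 12 and 7. Of the promoters shown, only the second of Ebf1 had an EZH2 peak on it, in nigericin-treated cells.

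The 9 genes did not share a chromatin state. H3K27me3 alone was found in the windows of Pax5, Ebf1 and Cd3e, both marks in those of Cd2 and Cd4, H3K27ac alone in those of Ms4a1 and Cd79a, and neither mark at Cd79b and Cd8a. In bulk chromatin, a mark on few cells and a weak mark on all cells cannot be told apart, nor can 2 marks in the same cells and in different cells. H3K27me3 reached 5 of 9 genes with 49 peaks, against 42.7% of all 21887 protein-coding genes. H3K27ac reached 4 of 9 with 21 peaks, against 41.6%. EZH2 reached 2 of 9 with 6 peaks in nigericin-treated cells, where 12.5% of all genes had a peak, and 3 of 9 with 12 peaks in untreated cells, where 19.6% had a peak. No p53 peak lay in any of the 9 windows, and 7.5% of all genes had such a peak. The counts for both histone marks are thus near the background.

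**Figure D1:**
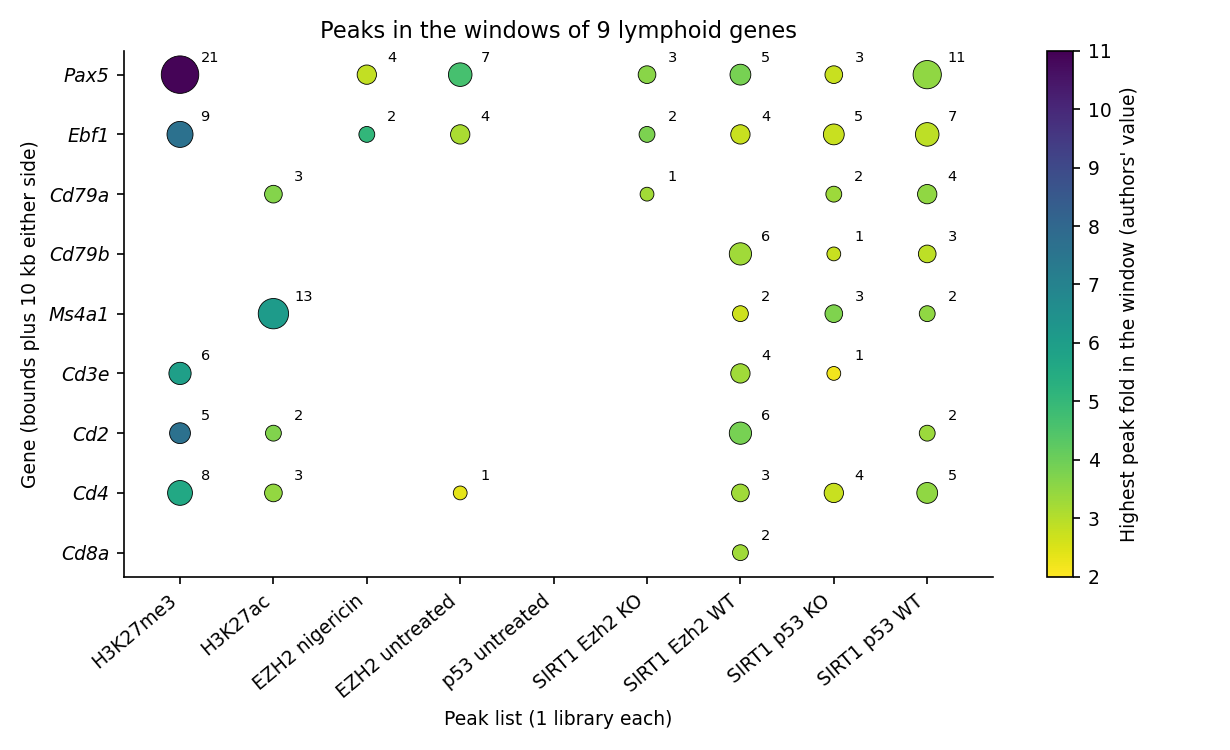
Dot plot of the 9 genes (rows) against the 9 peak lists (columns, 1 library each). The number in a dot is the count of peaks in the window and its colour the highest fold at a summit. The H3K27me3 dots lie at Pax5, Ebf1, Cd3e, Cd2 and Cd4, the 13 H3K27ac peaks of Ms4a1 stand out, and the p53 column is empty.

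Window length differs widely, at 206 kb for Pax5 and 410 kb for Ebf1 against 23.2 to 43.6 kb for the other 7 genes, and long windows catch more peaks. Among 15880 protein-coding genes with windows under 60 kb, 39.8% had an H3K27me3 peak and 38.3% an H3K27ac peak, and among 1747 genes with windows of 150 kb or more, 56.1% and 46.8% did. For EZH2 the share was 9.94% of the short and 29.5% of the long windows in nigericin-treated cells, and 14.4% and 52.8% in untreated cells. For p53 it was 4.1% of the short and 33.0% of the long windows. Per megabase, the member windows held 58.9 H3K27me3 peaks (95% exact Poisson interval 43.6 to 77.8), against 42.4 over the windows of all protein-coding genes. The intervals of density take peaks as independent, which they are not. Of the 49 H3K27me3 peaks, 21 lay at Pax5, close neighbours among them. For H3K27ac the density was 25.2 (15.6 to 38.6), against 29.2. For EZH2 it was 7.21 (2.65 to 15.7) against 2.85 over all windows in nigericin-treated cells, and 14.4 (7.45 to 25.2) against 4.74 in untreated cells. Pax5 and Ebf1 held 6 of 6 EZH2 peaks of nigericin-treated cells and 11 of 12 of untreated cells.

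Pax5 (gene ID 18507, chr4:44524748-44710694), the factor that commits a cell to the B lineage, had the highest H3K27me3 fold of the 9 genes, though Cd3e, Cd2 and Cd4 had larger shares of their windows covered. Its 21 H3K27me3 peaks covered 43.7 kb, or 21.2% of the window. The fold of a peak is the authors' value, which sets the fragments stacked at its summit against the background expected there. The widest peak, 23.5 kb from 44695496 to 44718965, ran across the gene start and reached 10.9-fold on 43 fragments at the summit (95% exact Poisson interval 31.1 to 57.9). Of protein-coding genes, most with far shorter windows, 1.74% had a peak at least as high. With neighbours no more than 2 kb apart, the widest peak formed a run of 10 peaks over 36.7 kb. The remaining peaks inside the gene were narrower and lower, the highest being a 7.68 kb peak of 5.50-fold whose summit lay 49.0 kb into the gene. No H3K27ac peak lay in the window, and the nearest was 46.1 kb beyond the gene start, in Zcchc7.

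Ebf1 (gene ID 13591, chr11:44618100-45008096), which acts before Pax5 in B cell specification, was marked around its start. Its 9 H3K27me3 peaks had summits at -9.39 to 15.0 kb from the gene start, and they covered 12.9 kb, 3.15% of its long window. The highest reached 7.66-fold on 30 fragments (20.2 to 42.8), at -6.64 kb. The first promoter fell in a gap of 830 bp between H3K27me3 peaks, which ended 444 bp before it and began again 86 bp after it. The second promoter, 2128 bp into the gene, lay under a 2.34 kb peak of 6.92-fold. The nearest H3K27ac peak was 71.4 kb away, in Rnf145.

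EZH2 was found at both genes in both conditions, with different folds. At Pax5 the nigericin list held 4 peaks of 1.87 to 2.83-fold, none with a q-value of 0.05 or less, and the untreated list held 7 peaks of 1.93 to 4.65-fold, 2 of them with such a q. The strongest untreated peak (chr4:44702368-44705878) reached 4.65-fold on 29 fragments (19.4 to 41.6) with a −log10 q of 8.05, over the long non-coding RNA 5730488B01Rik inside Pax5. The nigericin peak that overlapped it reached 1.87-fold on 24 fragments (15.4 to 35.7), over a local background of 12.4 fragments, against 5.45 for the untreated peak. Fragment numbers at these summits thus overlapped within counting error, and the local backgrounds differed. Before the gene start, a nigericin peak of 2.69-fold on 15 fragments (8.40 to 24.7) overlapped an untreated peak of 4.44-fold on 17 fragments (9.90 to 27.2), whose −log10 q was 4.26, and another of 1.93-fold. None of these lay on the Pax5 promoter shown above: the nearest nigericin peak ended 71 bp from it on the gene side, and the nearest untreated peak began 117 bp from it on the other side.

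At Ebf1 the highest fold was in nigericin-treated cells. The nigericin list held a 700 bp peak (chr11:44619798-44620497) over the second promoter, with 5.08-fold on 16 fragments (9.15 to 26.0) and a −log10 q of 4.49. Of protein-coding genes, most with far shorter windows, 0.242% had an EZH2 peak at least as high in this list. The untreated list held no peak over the second promoter, and its nearest peaks lay 3012 bp before and 14760 bp after that promoter. A further nigericin peak of 3.29-fold lay 213 kb into the gene. The 4 untreated peaks had 3.13, 2.47, 2.94 and 2.94-fold on 9 to 13 fragments, 2 of them before the gene start and 2 inside the gene, and none had a q of 0.05 or less. The nigericin list is the shorter of the pair, with 5128 peaks against 9771 in the untreated list. With the untreated list cut to the same length by p-value, both lists had 6 peaks in the windows, at 2 genes each.

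Most of these EZH2 peaks sat on H3K27me3 as mapped in untreated cells. The overlap was 5 of 6 nigericin peaks (83.3%, Wilson 95% interval 43.6 to 97.0), against 52.6% of that whole list, and 9 of 12 untreated peaks (75.0%, 46.8 to 91.1), against 41.5% of that whole list. The first interval includes the share of its list and the second lies above it, but the peaks come from 2 and 3 loci and are not independent. Of the nigericin peaks, 2 of 6 met an untreated peak (33.3%, against 34.5% of the list), and of the untreated peaks 3 of 12 met a nigericin peak (25.0%, against 16.3%). H3K27me3 without EZH2 was also seen: EZH2 in untreated cells was present at 3 of the 5 genes with H3K27me3, against 32.5% of all protein-coding genes with H3K27me3. The 3 were Pax5 and Ebf1, whose windows are long (60.7% among genes with H3K27me3 and windows of 150 kb or more), and Cd4, while Cd3e and Cd2, with short windows like Cd4 (26.7% among those under 60 kb), had none.

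**Figure D2:**
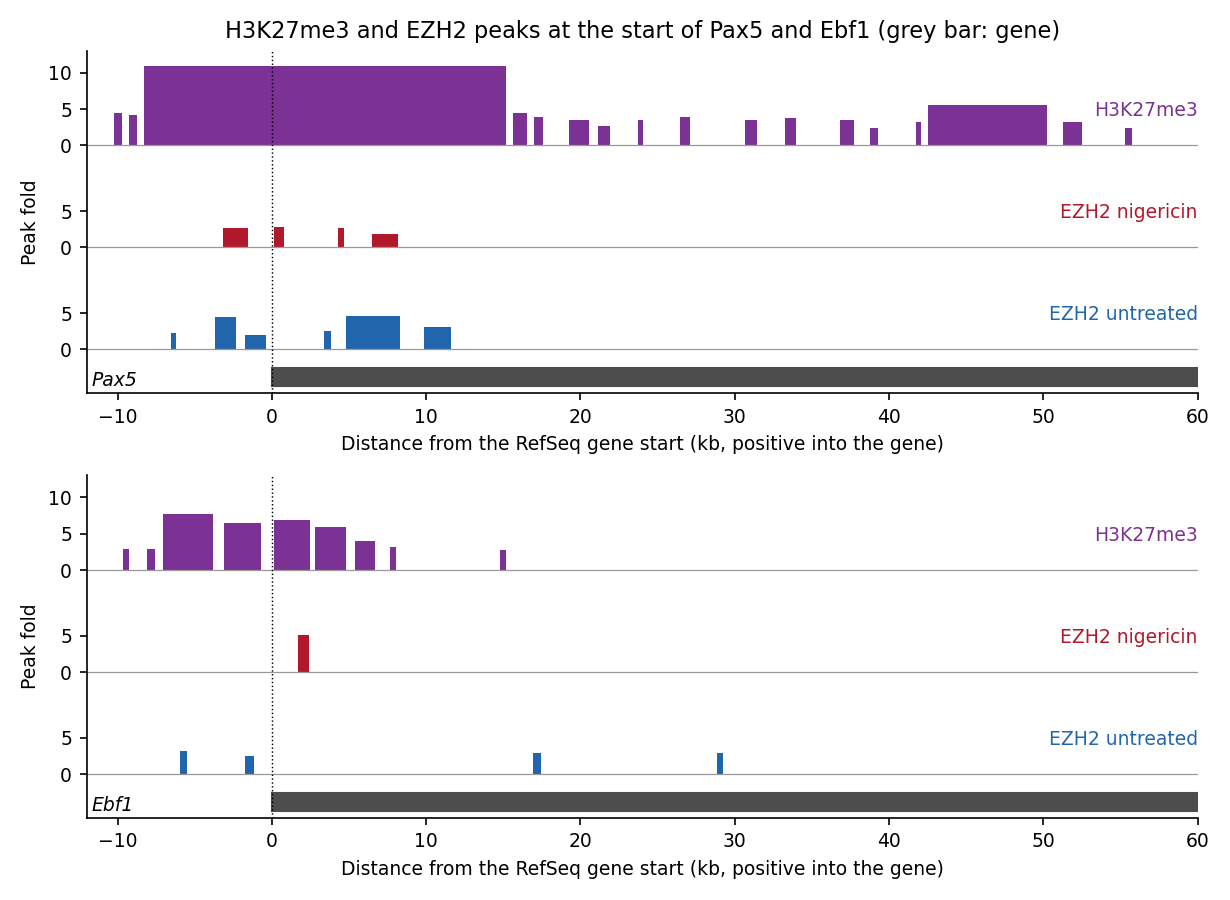
Peaks of H3K27me3 in untreated cells, EZH2 in nigericin-treated cells and EZH2 in untreated cells around the start of Pax5 and Ebf1. The horizontal axis is the distance from the RefSeq start in kb, positive into the gene, and bar heights are the fold at the summit. The highest untreated EZH2 peak (4.65-fold) lies inside Pax5 and the highest nigericin EZH2 peak (5.08-fold) at Ebf1, both within H3K27me3; peaks deeper than 60 kb in either gene are not drawn.

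Among the T cell genes, H3K27me3 covered Cd3e and Cd2 broadly and Cd4 in part, and was not listed at Cd8a. Cd3e (gene ID 12501, chr9:44998735-45009663) encodes the epsilon chain of the CD3 complex, which relays the signal of the T cell receptor. Its 6 H3K27me3 peaks covered 71.1% of the window and 100% of the gene, and 2.8% of protein-coding genes had a window covered as far. The main peak was 13.7 kb wide with 5.97-fold on 26 fragments (17.0 to 38.1) and took in the promoter shown above. It belonged to a run of 10 peaks over 52.0 kb that reached the neighbour Mpzl2, and the highest of the run, 10.3-fold, lay outside the window. No EZH2 peak lay in the window in either condition, the nearest untreated one being 17.6 kb beyond the gene at 3.21-fold and the nearest nigericin one 82.4 kb away at 2.32-fold. The window had no H3K27ac peak, but 1 of 2.85-fold lay 12.9 kb away inside Cd3d, whose product is another CD3 chain.

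Cd2 (gene ID 12481, chr3:101275908-101287939) encodes an adhesion receptor of T and natural killer cells. It held 5 H3K27me3 peaks that covered 74.7% of the gene, of which the highest inside the gene had 7.16-fold on 28 fragments (18.6 to 40.5) and the highest in the window, 8561 bp beyond the upper end, had 7.66-fold on 30. Between them, 2111 and 4184 bp beyond the upper end and overlapping the bounds of Gm32803, lay 2 H3K27ac peaks of 3.43-fold on 18 fragments (10.7 to 28.4) and 3.70-fold on 23 fragments (14.6 to 34.5). The marks thus lay side by side, without overlap.

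Cd4 (gene ID 12504, chr6:124864693-124888247), the coreceptor of helper T cells, held 8 H3K27me3 peaks of 2.88 to 5.59-fold that covered 22.6% of the gene. The 4 highest lay at its lower end and in the lower flank, and 2 of these overlap the bounds of P3h3, Gpr162 or Gm32404, so they are not of Cd4 alone. In the same flank lay the remaining EZH2 peak, seen in untreated cells, with 2.37-fold on 12 fragments (6.20 to 21.0) and a −log10 q of 0.0687. In the upper flank, beginning 5648 to 7929 bp beyond the gene, lay 3 H3K27ac peaks of 3.46, 3.08 and 3.33-fold. They were the edge of a run of 5 peaks over 9.41 kb whose highest, 5.97-fold on 42 fragments, began 10.6 kb beyond the gene and so just outside the window.

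Cd8a (gene ID 12525, chr6:71373427-71379171), the coreceptor of cytotoxic T cells, had no histone, EZH2 or p53 peak in its window. The nearest H3K27ac peak was 38.5 kb away in Rmnd5a and the nearest H3K27me3 peak 90.2 kb away, at 2.59 and 2.72-fold. Its partner chain gene Cd8b1 likewise had neither histone mark. The absence of a peak means that none passed the authors' limit in this library, and not that the mark was absent.

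The B cell receptor genes looked unlike Pax5 and Ebf1. Cd79a and Cd79b encode the signalling chains of the B cell receptor. Cd79a (gene ID 12518, chr7:24897497-24901858) had no H3K27me3 peak within 24.5 kb and held 3 H3K27ac peaks. Inside the gene lay 1 of 2.90-fold on 15 fragments (8.40 to 24.7), a second of 3.66-fold on 32 (21.9 to 45.2) began 45 bp past its end, and the third, of 3.17-fold on 23, overlapped the neighbour Arhgef1. Of all protein-coding genes, 24.0% had an H3K27ac peak of 3.66-fold or more, so these peaks are of ordinary height. Cd79b (gene ID 15985, chr11:106311341-106314562) had neither mark, and its nearest H3K27me3 peak, 2.47-fold on 9 fragments, lay 11.7 kb below the gene and so just outside the window, with the nearest H3K27ac peak 55.0 kb away.

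Ms4a1 (gene ID 12482, chr19:11249679-11266149), which encodes the B cell surface protein CD20, was the member least like a repressed gene. Its window held 13 H3K27ac peaks that covered 65.2% of the window and 77.5% of the gene, and 0.626% of protein-coding genes had a window covered as far. The highest were 6.09-fold on 47 fragments (34.5 to 62.5) below the gene, 6.06-fold on 37 (26.1 to 51.0) inside it and 6.06-fold on 43 (31.1 to 57.9) above it. The nearest H3K27me3 peak was 232 kb away. The label of these genes as silenced is therefore not matched by this mark at Ms4a1, and at Cd79a in part. The peaks lie within the bounds of the long non-coding RNA 4930526L06Rik, and Ms4a1 sits in a cluster of related genes, some of which macrophages are known to express. Of the 21 Ms4a genes of the cluster on chromosome 19, looked at after the values of Ms4a1 were seen, 17 had an H3K27ac peak in the window and 3 an H3K27me3 peak. Ms4a1 ranked 3 by the share covered, after Ms4a7 at 76.9% and Ms4a6b at 67.3%, and the median of the cluster was 26.2%. Windows of neighbours overlap, so some peaks are counted for more than 1 of these genes.

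**Figure D3:**
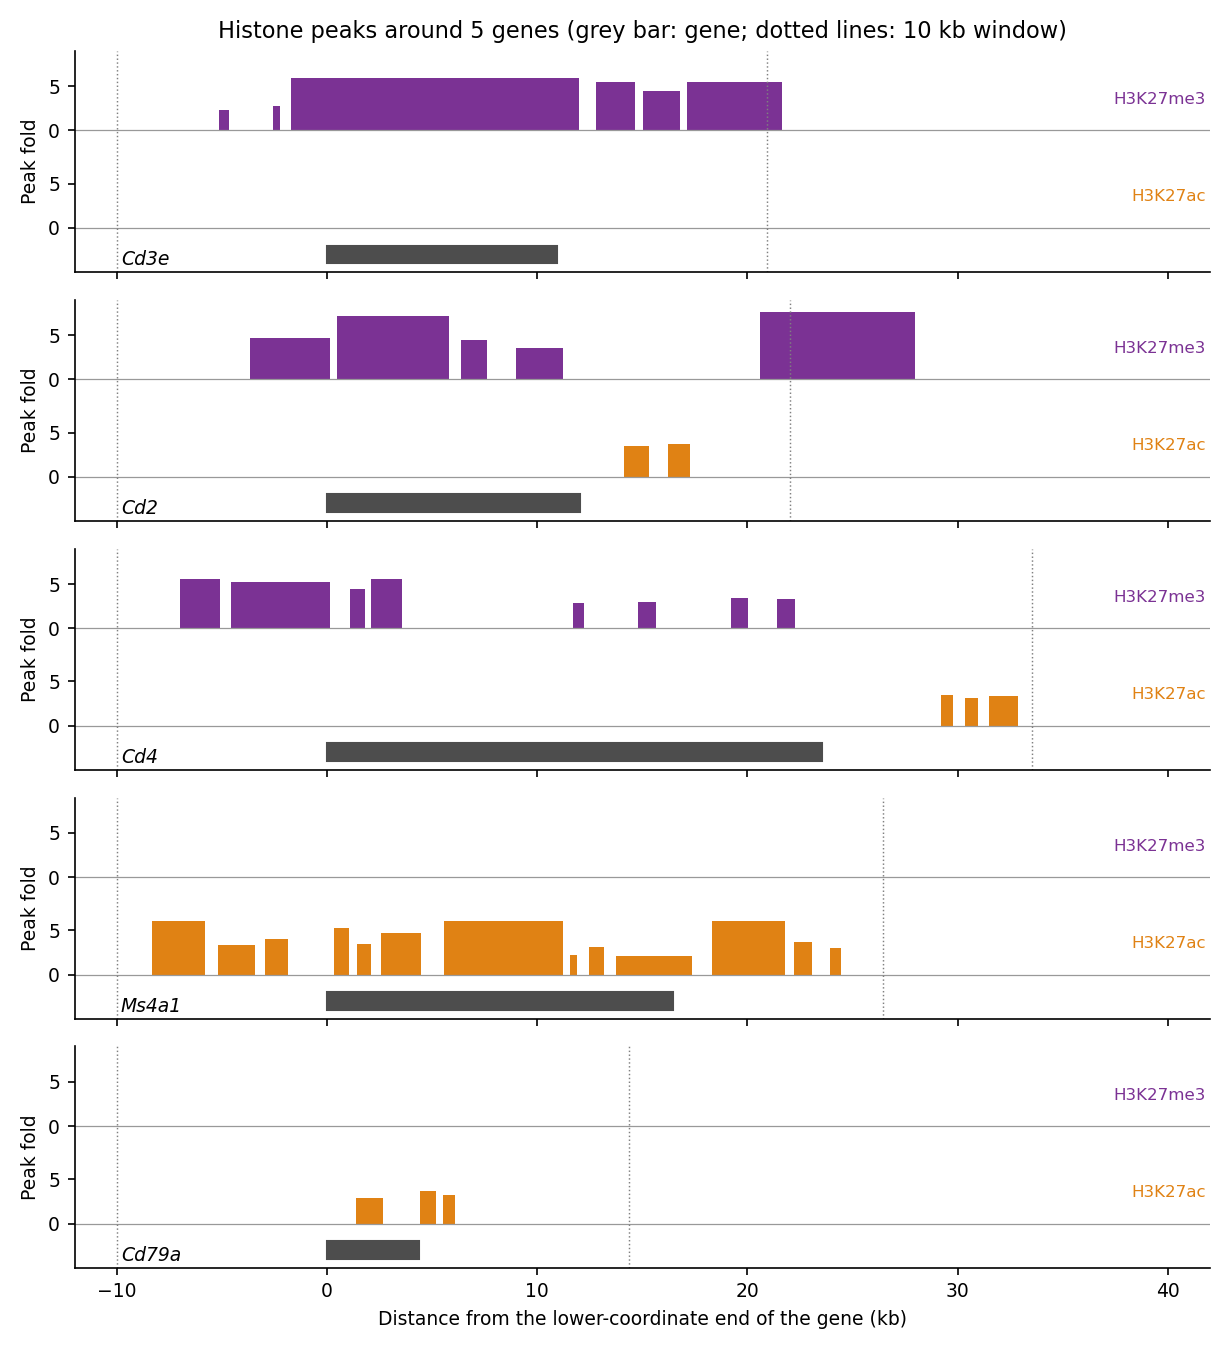
H3K27me3 and H3K27ac peaks at Cd3e, Cd2, Cd4, Ms4a1 and Cd79a against the distance from the lower-coordinate end of the gene in kb. Bar heights are the fold at the summit, the grey bar is the gene and dotted lines are the ends of the window. H3K27me3 covers all of Cd3e, the marks lie side by side at Cd2 and Cd4, and H3K27ac covers 77.5% of Ms4a1.

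Other lymphoid genes were spread over the same states. The cells carried the chromatin of macrophages, since 20 of 20 macrophage identity genes had an H3K27ac peak, with a median of 39.0% of the window covered, and 2 of 20 had H3K27me3. Of 17 other B cell genes, 7 had H3K27me3 alone, 2 both marks, 7 H3K27ac alone and 1 neither. Of 29 other T cell genes, 12 had H3K27me3 alone, 5 both, 7 H3K27ac alone and 5 neither. Of 6 natural killer genes, 4 had H3K27me3 alone and 2 neither. Windows of neighbouring genes on these lists can overlap, so some peaks are counted for more than 1 gene. Genes of other cells that marrow cultures can hold were mixed too: H3K27ac was found at 3 of 12 granulocyte, 2 of 8 erythroid and 3 of 6 stroma and endothelium genes, and H3K27me3 at 6, 5 and 4 of them. Over all protein-coding genes the shares were 26.8% for H3K27me3 alone, 15.9% for both, 25.7% for H3K27ac alone and 31.6% for neither. Beside the H3K27ac of Ms4a1 and Cd79a, 9 of 17 other B cell genes had H3K27ac, over windows covered by 0 to 78.0% with a median of 0.561% across the 17, and the defining B cell genes Pax5, Ebf1 and Cd79b had none. A part of B lymphocytes in these peaks was not tested.

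Highest for H3K27me3 among these other genes were Tbx21 (10.4-fold), the T helper factor, Gata3 (9.68-fold), Tnfrsf13c (8.65-fold), Lef1 (8.40-fold) and Tcf7 (8.15-fold). At Gata3 the highest EZH2 fold was 5.28 in nigericin-treated cells and 4.13 in untreated cells. Highest for H3K27ac were Il7r (9.18-fold), Cd27 (6.23-fold), Cd247 (5.78-fold), Fcrla (5.70-fold) and Lat (5.68-fold), and H3K27ac covered 78.0% of the Fcrla window. Likeness over the 9 lists was measured as the Euclidean distance of log2(1 + highest fold), with 52 genes compared. The nearest gene was Lef1 to Pax5 (distance 1.04, against a median of 4.78 over the 52) and to Ebf1 (1.14), Rag1 to Cd3e (0.57), Lat to Cd2 (1.15), Cd8b1 to Cd8a (1.88), Fcrla to Cd79a (0.64), Tnfrsf13b to Ms4a1 (0.67) and Cd28 to Cd79b (0.42). The 4 SIRT1 lists, with 3 to 6 fragments a peak in the member windows, weigh as much in this distance as the other 5, and the fold leaves out how far a window is covered. Rag1, for example, had an H3K27me3 fold of 3.71, and Cd3e 5.97. For Cd79b and Cd8a the distance rests on SIRT1 peaks alone on the side of the member.

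**Figure D4:**
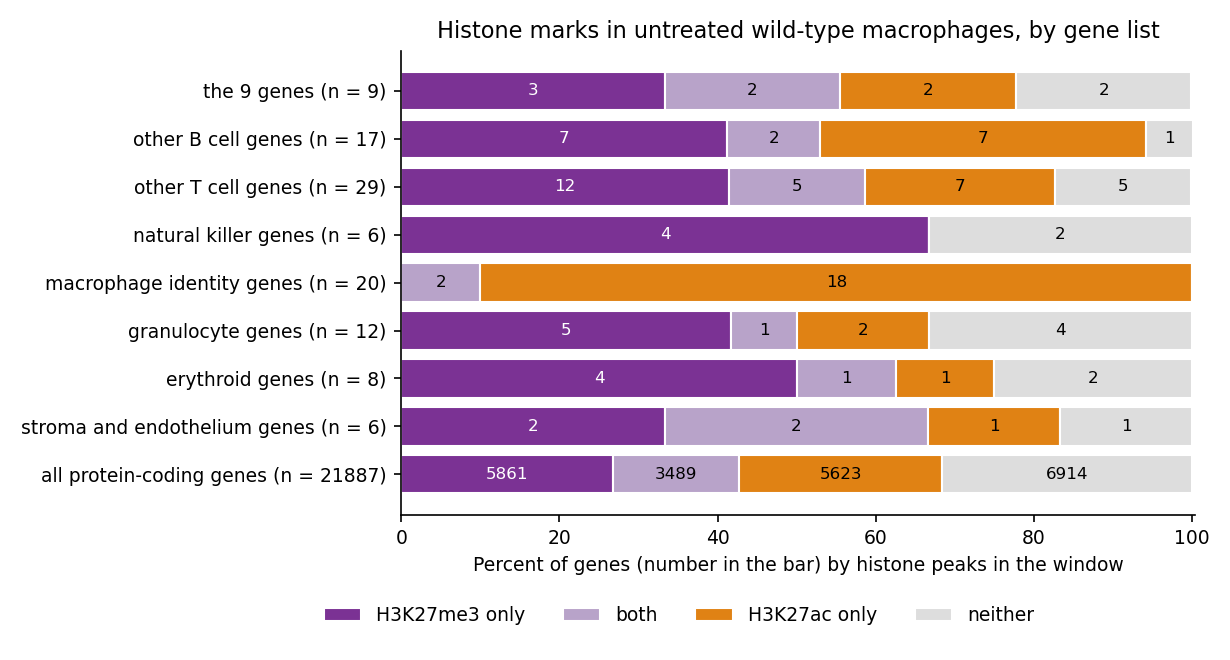
Stacked bars of the percent of genes with H3K27me3 alone, both marks, H3K27ac alone or neither in the window, by gene list, with the number of genes in each segment. The 9 members split 3, 2, 2 and 2, the macrophage identity genes have H3K27ac in all 20, and the other B and T cell genes fall in all 4 classes.

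SIRT1 peaks were scattered over the members in all 4 lists, and each rested on 3 to 6 fragments. The Ezh2 knock out list had 6 peaks at 3 of 9 genes (44.5% of all genes, 38.2% of those with short and 71.2% of those with long windows), and its wild type had 32 peaks at 8 of 9 (76.4%, 70.1% and 97.0%). The p53 knock out list had 19 peaks at 7 of 9 (71.8%, 65.2% and 94.2%), and its wild type had 34 peaks at 7 of 9 (70.9%, 64.0% and 94.2%). None of these peaks had a q of 0.05 or less, and the highest −log10 q was 0.282. The Ezh2 knock out list is short, with 18170 peaks against 74767 in its wild type, and with both cut to equal length there were 6 peaks at 3 genes in the knock out and 7 peaks at 5 genes in the wild type. Per megabase, the Ezh2 knock out windows held 7.21 peaks (2.65 to 15.7) against 9.96 over the windows of all genes, and its wild type 38.4 (26.3 to 54.3) against 37.6. The p53 knock out windows held 22.8 (13.7 to 35.7) against 31.6 over all genes, and its wild type 40.9 (28.3 to 57.1) against 29.6.

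By gene, Cd2 had 0 SIRT1 peaks in Ezh2 knock out cells and 6 in the wild type, and Cd79b likewise 0 and 6. Cd3e had 0 and 4, Cd4 0 and 3, Ms4a1 and Cd8a 0 and 2 each, Ebf1 2 and 4, and Pax5 3 and 5. At Cd79a there was 1 in the knock out and 0 in the wild type. In the p53 pair, Pax5 had 3 in the knock out and 11 in the wild type, Ebf1 5 and 7, Cd4 4 and 5, Cd79a 2 and 4, Cd79b 1 and 3, Cd2 0 and 2, Ms4a1 3 and 2, Cd3e 1 and 0, and Cd8a none in either. Few places were shared, as in the lists as a whole. Of the Ezh2 pair, 0 of 6 knock out and 0 of 32 wild-type peaks met each other, against 8.01% and 1.94% of the whole lists. The p53 pair shared 2 of 19 knock out and 2 of 34 wild-type peaks, in Pax5 and Cd79a (10.5% and 5.88%, against 4.69% and 4.97% of the whole lists). The Ezh2 wild type and the p53 wild type shared 1 of 32 and 1 of 34, in Cd4 (3.12% and 2.94%, against 3.93% and 5.22%). Both histone marks were mapped in untreated wild-type macrophages only, and in neither knock out. SIRT1 peaks over H3K27me3 so mapped were 1 of 6 in Ezh2 knock out cells (16.7%, 3.01 to 56.4, against 9.51% of the whole list) and 12 of 32 in their wild type (37.5%, 22.9 to 54.7), where 8.46% of the whole wild-type list did so and H3K27me3 covered 12.6% of the member windows. The 12 peaks come from few loci and are not independent. At Cd3e, where all 4 lay over H3K27me3, the mark covered 71.1% of the window. In p53 knock out cells the SIRT1 peaks over H3K27me3 were 4 of 19 (21.1%, 8.51 to 43.3, against 7.76% of the whole list) and in their wild type 6 of 34 (17.6%, 8.35 to 33.5, against 8.94%). Peaks over H3K27ac were 1 of 6 in Ezh2 knock out cells (16.7%, against 15.5% of the whole list) and 2 of 32 in their wild type (6.25%, against 9.97%), and 4 of 19 in p53 knock out cells (21.1%, against 13.3%) and 3 of 34 in their wild type (8.82%, against 12.3%). H3K27ac covered 3.75% of the member windows.

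**Figure D5:**
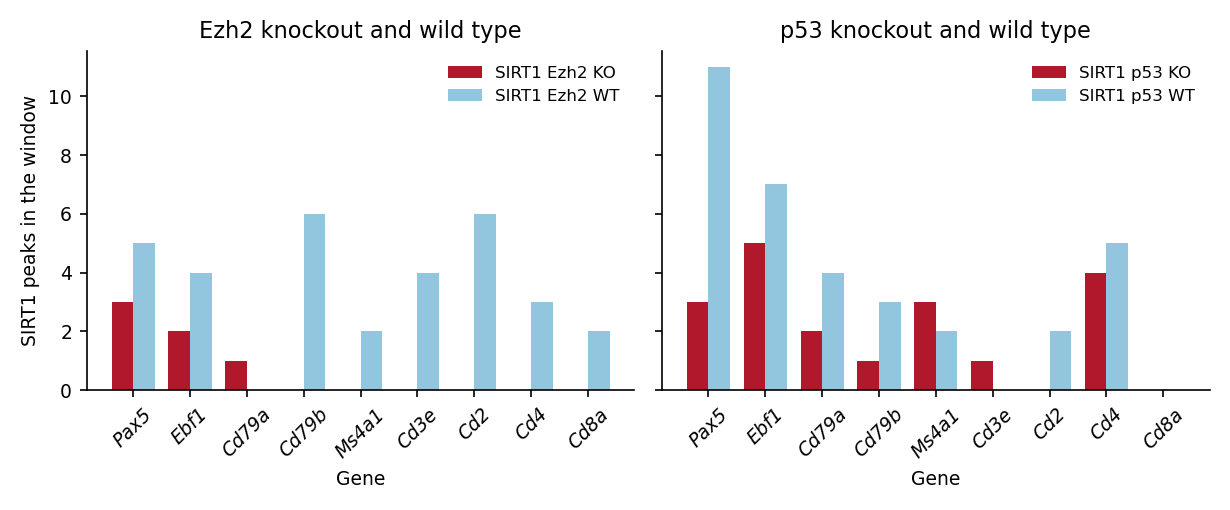
Number of SIRT1 peaks in the window of each gene, knock out beside wild type, for the Ezh2 pair and the p53 pair (1 library each, no error bars). Ezh2 knock out has fewer peaks than its wild type at 8 of 9 genes and more at Cd79a, and the Ezh2 knock out list is shorter as a whole.

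The promoter letters were searched for 3 motifs on both strands. The core that EBF1 binds, searched as TCCC and GGGA parted by 2 bases, was in none of the 6 RefSeq promoters of the members (Pax5, a pair for Ebf1, Cd79a, Cd3e and Cd8a) and in 0.904% of all 32851. GAGGAAGT, a core of the macrophage and B cell factor PU.1, was in none of the 6 and in 3.2% of all. CANNTG, the E box of the factor E2A and its relatives, occurred 3 times in Cd8a, 2 times each in Cd79a, Cd3e and the second Ebf1 promoter, once in Pax5 and not in the first Ebf1 promoter, and 72.3% of all promoters held it. These matches describe the letters in a 300 base window and nothing beyond it.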

How the data were processed

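ChIP-seq of 9 libraries and 7 inputs (16 samples) had been deposited as 9 narrowPeak lists, each from a single library. MACS2 and deepTools were used on GRCm38/mm10, per the submitters' processing notes. The sources used here give no versions, aligner, read totals or pairing of inputs, so depth is unknown. The deposited fold column is the authors' ratio at the summit, with a pseudocount of 1. Deposited −log10 p-values and −log10 q-values were used as given. The deposited score, found to repeat the −log10 q (histone lists) or −log10 p (other lists) times 10, was not used further. The deposited summit offset gave the summits. Judging by their lowest values, the histone marks were listed down to a q of 0.05, and EZH2, p53 and SIRT1 down to a p of 0.01, so that most EZH2, p53 and SIRT1 peaks have a q above 0.05.

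Peaks on chromosomes 1 to 19, X and Y were joined to RefSeq gene bounds of GRCm38.p6, with coordinates 1-based. All members and listed genes were matched by symbol, and 5 members had RefSeq promoters. Summit fragment numbers were derived from the fold and p under a Poisson model, within 0.001 of the −log10 p for 179 of 179 peaks, and the code was tested on simulated data. Intervals are 95% Wilson or exact Poisson and cover counting error only. Shares were set beside all 21887 protein-coding genes. With 1 library per group no test between conditions was run. The genes named are the 9 members, genes overlapping their peaks, the 5 other lymphoid genes highest for each histone mark and the nearest gene by likeness, of which 1 is not reported here. Exceptions, chosen after values were seen, are the Ms4a genes, the CD3 and CD8 partner genes and the neighbours Mpzl2, Zcchc7, Rnf145 and Rmnd5a. The members and lists were chosen with earlier results of these data known. Software was python 3.11.15, numpy 2.4.6, pandas 2.3.3, scipy 1.17.1 and matplotlib 3.10.9. Alternatives were other flanks, q limits, summit placement, overlap rules and equal list lengths.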

Additional observations from a re-analysis of the deposited data

How the results depend on the processing

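Of 78 alternatives for the main results, 41 gave the same value, 12 changed a count by no more than 1.5 times, and 25 moved a count further or moved a covered share outside its 95% Wilson interval over bases, which is narrow. Some of the 41 could not have differed, so they show no stability. The p53 list had no peak to lose, and both histone lists already ended at a q of 0.05. Equal length left the shorter list of each pair unchanged. Among the 12, EZH2 in untreated cells was at 2 genes in place of 3 with no flank, with 5 kb and with lists of equal length, H3K27ac at 3 in place of 4 with 5 kb, and SIRT1 in the Ezh2 wild type at 6 in place of 8 with no flank. The number of genes with H3K27me3, 5 of 9, held in every alternative run, of which the q limit of 0.05 could not change it. With the flank left out, 2 genes had H3K27ac in place of 4, since the peaks of Cd2 and Cd4 lie outside the genes, and 3 untreated EZH2 peaks overlapped H3K27me3 in place of 9. At a q of 0.05 or less, EZH2 was left at 1 gene in nigericin-treated cells and 1 gene in untreated cells, with 1 and 2 peaks over H3K27me3. At a −log10 q of at least 5 it was left at 0 genes and 1 gene, with 0 and 1 peaks over H3K27me3. Each of the 4 SIRT1 lists had 0 genes left at either limit. With lists of equal length, the Ezh2 wild-type SIRT1 list had 5 genes in place of 8. The share of window bases under H3K27me3, 12.6%, became 10.2% with no flank, 12.0% with 5 kb and 10.2% at a −log10 q of at least 5. That under H3K27ac, 3.75%, became 2.16%, 3.24% and 2.60%. Leaving out peaks over another protein-coding gene, an alternative added after seeing the data, changed no count of genes. No paired analysis was possible because each group has 1 library and the labels carry no replicate numbers. The lack of replicates limits every comparison of conditions, and the 3 to 6 fragments behind each SIRT1 peak limit what its place can show.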
